A study of Mus musculus with 13 samples.

Results

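Liver after 4 weeks of TAA was compared with naive liver on 7 of the 13 arrays of the series, 4 arrays at 4 weeks (A to D) and 3 naive arrays (A to C). The arrays were taken by the headings of their columns. A named gene was tested where 3 or more of the 13 arrays detected its probe (detection p-value under 0.01), which gave 8027 genes from 25697 probes. TAA is the usual short form of thioacetamide, a hepatotoxin that hepatocytes convert to reactive metabolites. Every sample was total liver RNA, and the mice were C57BL/6 females. The naive group was untreated, and the other group had received TAA for 4 weeks. The labels give no dose, route, dosing scheme or age, and the entry for tissue holds the word gender. Nothing in them tells whether samples of 1 group came from separate animals, so the p-values measure only the spread between samples of a group. That spread was estimated from all 13 arrays, those at 1 and 6 weeks included.

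Repeated dosing with thioacetamide kills hepatocytes around the central vein, where the cytochromes that activate it are most abundant. Surviving hepatocytes divide, stellate cells turn into matrix-producing myofibroblasts, macrophages gather along the scars, and cells with features of bile ducts spread from the portal tracts. Enzymes against electrophiles, many of them driven by the transcription factor NRF2, are a usual part of the response of hepatocytes to such toxins.

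Values are normalized log2 intensities of 1 probe per gene, and changes are the mean at 4 weeks minus the naive mean on that scale, with the standard error (SE) of the limma model and n = 4 and 3. A gene was called at a limma p-value under 0.05 after Benjamini-Hochberg adjustment over all 8027 genes. Of all genes 2260 were called, which is 28.2%, and 3190 had an unadjusted p under 0.05. The called genes comprised 1222 higher at 4 weeks (15.2% of those tested) and 1038 lower (12.9%). The counts of each gene list below are to be read beside these shares. Changes of at least 2-fold were found in 456 called genes that rose and 406 that fell, and changes of at least 4-fold in 72 and 57. The arrays of the groups did not overlap for 45.4% of all genes, and for 2201 of those called. The plot of change against level shows called genes over the whole range of intensity. When arrays were scaled to their medians in place of quantile normalization, the median of all genes moved from 0.026 to 0.166 and 861 genes were called, 545 of them higher (63.3%, against 54.1%). With median scaling and only the 7 arrays in the model, 3116 were called, 2110 of them higher (67.7%).

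**Figure D1:**
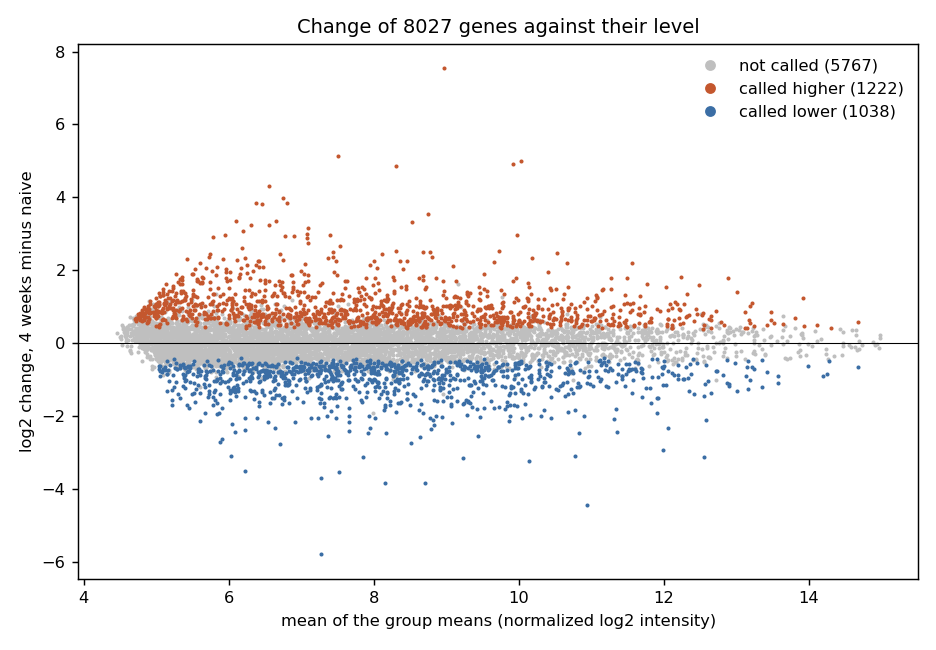
Log2 change (4 weeks minus naive, vertical) of each of the 8027 genes against the mean of its group means (normalized log2 intensity, horizontal), with genes called higher in orange, called lower in blue and the others in grey. The 1222 genes called higher and the 1038 called lower extend over the range of intensities.

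Mean intensity of the 7 arrays ran from 456 to 611, and the probes detected per array from 9382 to 9624 in naive liver and from 10259 to 10980 at 4 weeks. Across genes, which are not independent replicates, arrays correlated with r from 0.981 to 0.99 within the 4-week group, from 0.978 to 0.988 within the naive group and from 0.924 to 0.951 between the groups. Hepatocyte genes had a summed intensity from 255933 to 312914 in naive liver and from 276867 to 286762 at 4 weeks, so the tissue label and its defining genes went together. Naive array A stood apart from naive arrays B and C in clock genes, whose median deviation from the naive mean was 0.79 there against -0.52 and -0.25. It also stood apart in single acute phase genes (Saa1, Saa3 and Lcn2), though not in the median of their list (0.05, 0.04 and -0.15), and values without it are given where it bears on a result. No label names an array set, and the division was inferred from the intensities. The 7 genes used were chosen because they divide the series, so that they do so alike follows from the choice. For each of them all 7 arrays lay on the low side, and so did 1-week array A. Erich5 read from 7.15 to 8.08 on the 7 arrays and 8.06 on 1-week array A, against at least 10.86 on the remaining arrays. The 1-week group, which enters the estimate of the spread, was thus itself divided.

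Several of the largest rises were in detoxifying enzymes. Gsta1, an alpha-class glutathione transferase that conjugates electrophiles, had the largest fitted rise and read 6.72, 4.42 and 4.45 on naive arrays A, B and C and 12.63, 12.10, 13.38 and 12.82 on 4-week arrays A, B, C and D. It was detected on 1 naive array, and it rose by 7.54 ± 0.45 (adjusted p = 8.09e-08), or by 6.87 with the undetected arrays at their lowest detected signal. The closely related Gsta2 rose by 4.99 ± 0.44, from 8.22, 6.59 and 7.80 to 12.48, 11.44, 13.33 and 12.84 (adjusted p = 4.46e-06). The probes of near-identical family members can share signal, so the share of each gene in such a pair is uncertain. Cbr3, a carbonyl reductase, read 6.26, 5.50 and 5.84 in naive liver and 10.69, 10.27, 11.51 and 10.47 at 4 weeks, a rise of 4.87 ± 0.47 (adjusted p = 8.95e-06), and its other probe gave 3.79. Akr1c18, a steroid-reducing member of the aldo-keto reductases, was detected on no naive array and was at least 5.12-fold higher (adjusted p = 0.000128). These genes were named from those whose groups did not overlap, so that all 4-week arrays lay above all naive arrays follows from the choice. Array C was the highest of the 4-week arrays for Gsta1, Gsta2 and Cbr3.

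Of 35 tested genes of the glutathione and NRF2 list (36 are on the array) 21 rose and 0 fell, which is 60.0% called against 28.2% of all genes, and 13 rose with median scaling. Their median change was 0.89, or 0.82 with undetected genes at their bound, beside 0.026 over all genes. Nqo1, the quinone reductase that is the textbook NRF2 target, read 6.04, 5.84 and 5.83 and then 7.63, 7.22, 7.87 and 7.62, a rise of 1.68 ± 0.19 (adjusted p = 2.88e-05). Gclc, the catalytic subunit of glutathione synthesis, differed by 0.46 ± 0.34 (adjusted p = 0.338). Its probe was dim in naive liver, detected on 2 of the 3 arrays. The heme oxygenase Hmox1 read 6.64, 6.25 and 6.63 and then 7.37, 6.67, 8.42 and 6.42. Its difference was 0.72 ± 0.34 (adjusted p = 0.131), array C was the highest, and array D lay within the naive range. Gstp2, a pi-class transferase, was at least 7.15-fold higher (adjusted p = 2.37e-05). On array C the median of the list stood 1.40 above the naive means, against 1.03, 0.86 and 0.84 on arrays A, B and D. In RefSeq promoters (GRCm38.p6, from 250 bases before to 50 after the gene start) the antioxidant response motif TGACNNNGC, searched on both strands, was found in 5 of the 31 list genes with a promoter in the table (16.1%) and in 16.5% of all tested genes. Those shares are near each other.

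**Figure D2:**
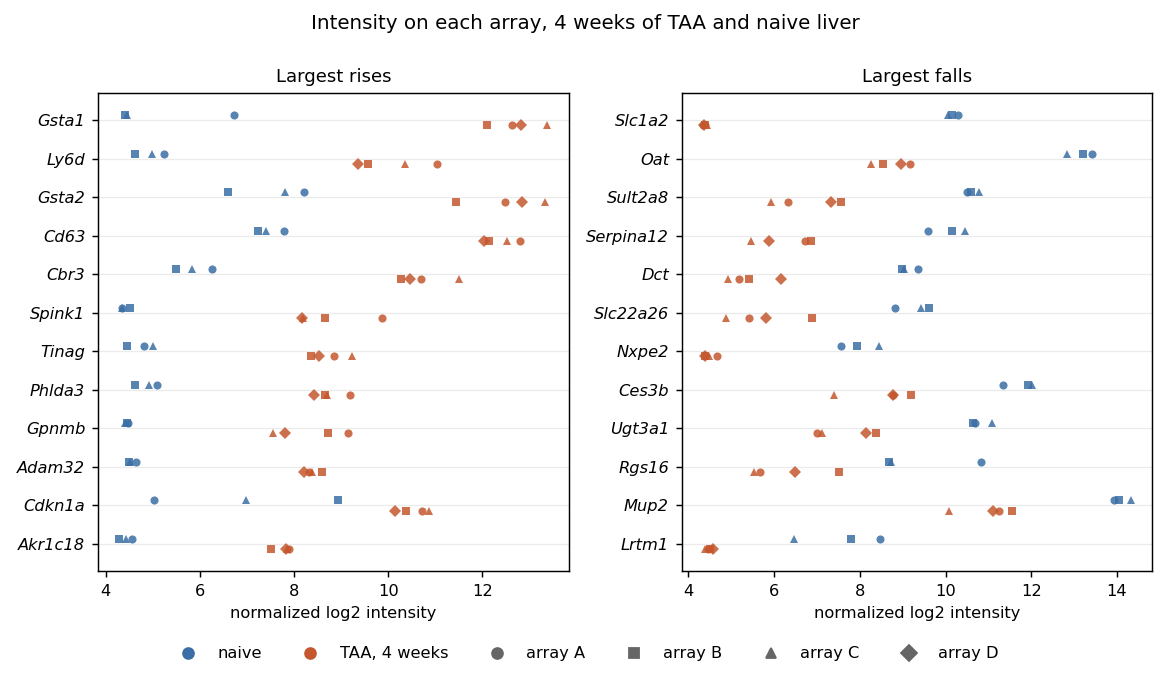
Normalized log2 intensity (horizontal) of the 12 genes with the largest rises and the 12 with the largest falls on each array, naive in blue and 4 weeks of TAA in orange, with a symbol for each array letter. The 24 genes were chosen from called genes whose groups do not overlap, and Cdkn1a has the widest naive spread, from 5.02 to 8.94.

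Several of the other largest rises were in genes not detected in naive liver. Ly6d, a surface protein of the Ly6 family, read 5.24, 4.63 and 4.99 in naive liver, on arrays where it was not detected, and 11.04, 9.58, 10.35 and 9.35 at 4 weeks. It exceeded naive liver at least 25.5-fold (adjusted p = 8.95e-06), and its other probe gave 4.55 on the log2 scale. Spink1, which blocks trypsin, exceeded naive liver at least 9.95-fold (adjusted p = 0.000113), with array A at 9.87 and the others between 8.17 and 8.65. Tinag, a basement membrane protein first known from kidney, was not detected in naive liver either and read 8.84, 8.35, 9.23 and 8.54 at 4 weeks (adjusted p = 2.71e-07). Adam32, of the ADAM family, exceeded naive liver at least 7.85-fold (adjusted p = 8.09e-08), and its 4-week arrays lay within 8.22 and 8.60. Fndc10 was at least 7.51-fold higher (adjusted p = 5.53e-06). In all, 268 genes were detected on every 4-week array and on no naive array, and 167 of them were called higher. The reverse held for 25 genes, of which 24 were called lower. The 4-week arrays also detected more probes in total, from 10259 to 10980 per array against 9382 to 9624 on naive arrays. How far that difference enters the counts of 268 and 25 genes was not tested.

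Targets of p53, the transcription factor of the DNA damage response, rose in 8 of 15 cases and fell in 0. Their median change was 1.05, and 0.77 without naive array A. Phlda3, an Akt inhibitor that p53 induces, was detected on no naive array and was at least 10.1-fold higher (adjusted p = 8.09e-08), with 9.18, 8.66, 8.70 and 8.42 at 4 weeks. Cdkn1a, which encodes the cell cycle inhibitor p21, varied widely in naive liver, with 5.02, 8.94 and 6.97, and read 10.72, 10.37, 10.87 and 10.15 at 4 weeks. It rose by 3.55 ± 0.59 (adjusted p = 0.000574), and its other probes gave 2.76 and 2.38. Gtse1, a G2 phase regulator of p53, exceeded naive liver at least 5.03-fold (adjusted p = 3.63e-06), and its other probe gave 1.94 on the log2 scale, against 3.07. Mdm2, the ubiquitin ligase that p53 induces and that degrades it, rose by 1.43 ± 0.20 (adjusted p = 0.000184), from 9.05, 8.59 and 8.90 to 10.25, 10.23, 10.51 and 10.11. Plk2 rose by 1.11 ± 0.18 (adjusted p = 0.000548). The 4-week arrays of Mdm2 lay close together and above all naive arrays.

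Proliferation genes rose alongside. Of 28 tested cell cycle genes (36 are on the array) 19 rose and 1 fell, with a median of 1.51, or 1.33 with undetected genes at their bound. Birc5, the mitotic regulator survivin, read 5.39, 4.84 and 5.62 in naive liver and 7.62, 7.19, 7.74 and 7.65 at 4 weeks, a rise of 2.27 ± 0.37 (adjusted p = 0.000498), or 2.07 with the undetected naive array at its lowest detected signal. The replication helicase subunit Mcm2 rose by 1.78 ± 0.21 (adjusted p = 4.61e-05), or by 1.52 on that basis, from 5.68, 4.94 and 5.15 to 7.04, 6.86, 7.41 and 6.85. Another subunit, Mcm6, rose by 1.71 ± 0.34 (adjusted p = 0.00194). Rrm2, a subunit of the ribonucleotide reductase that makes deoxynucleotides, rose by 1.95 ± 0.28 (adjusted p = 0.000199), or by 1.46 on that basis. Cyclin D1, Ccnd1, which carries cells from G1 towards S phase, was already bright in naive liver, at 10.85, 11.07 and 11.14, and rose by 1.31 ± 0.18 (adjusted p = 0.00015). The thymidine kinase Tk1 went the other way, from 8.78, 8.44 and 8.48 to 7.08, 7.38, 7.69 and 7.91, a change of -1.05 ± 0.21 (adjusted p = 0.00211), and its other probe gave -1.07, but the call was lost with median scaling (adjusted p = 0.179). On 4-week array B the median of the list was 1.15, the lowest of the 4, and on the others from 1.47 to 1.62.

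Promoters of mitotic genes commonly hold CCAAT boxes and a cell cycle homology region (TTTGAA or TTCGAA) close to the gene start. The stretches printed here, chosen after values and motifs had been seen, come from 4 genes that rose and are shown because the positions of the motifs can be compared between them. Each is the 110 bases before the gene start in RefSeq (GRCm38.p6), 5′ to 3′ in the direction of the gene, with CCAAT boxes and cell cycle homology regions of either strand in capitals.
Top2a: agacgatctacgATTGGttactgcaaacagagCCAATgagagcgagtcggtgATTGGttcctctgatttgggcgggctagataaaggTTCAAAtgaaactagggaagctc
Cdk1: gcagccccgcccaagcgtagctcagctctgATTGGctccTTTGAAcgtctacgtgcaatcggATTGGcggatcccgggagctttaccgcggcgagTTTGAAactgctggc
Kif22: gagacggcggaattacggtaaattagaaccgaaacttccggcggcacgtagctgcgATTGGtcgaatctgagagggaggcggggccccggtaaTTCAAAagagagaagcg
Prc1: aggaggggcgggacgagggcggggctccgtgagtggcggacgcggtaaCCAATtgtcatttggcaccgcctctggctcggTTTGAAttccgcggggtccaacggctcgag

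The stretches lie on the minus strand at chr11:99024190-99024299 for Top2a, chr10:69352913-69353022 for Cdk1 and chr7:127042421-127042530 for Kif22, and on the plus strand at chr7:80294366-80294475 for Prc1, whose table entry has a further start. In the 4 stretches printed a cell cycle homology region starts 15 to 30 bases before the gene start, but the 110 bases before the other start of Prc1 hold none. The same 110 bases hold none in most of the other cell cycle genes that rose, Birc5, Rrm2 and Mcm6 among them. In Mcm2 the region starts 70 bases before the gene start. In Cdc20, which also rose (3.01) and is not printed, it starts 18 bases before. The shared position is thus a trait of the stretches chosen and of Cdc20, and not of the genes that rose as a whole. Top2a, the topoisomerase that untangles chromosomes, and the mitotic kinase gene Cdk1 were detected on no naive array and exceeded naive liver at least 2.55-fold and 4.22-fold (adjusted p = 0.00344 and 0.000967). The spindle genes Prc1 and Kif22 rose by 2.98 ± 0.51 and 2.08 ± 0.57 (adjusted p = 0.000672 and 0.014). Over the window from 250 bases before to 50 after the start, a CCAAT box on either strand was found in 18 of 25 cell cycle genes with a promoter in the table (72.0%), in 43.8% of all tested genes and in 41.1% of all promoters. The homology region was found in 13 of the 25 (52.0%), in 16.7% of all tested genes and in 21.7% of all promoters. These matches describe the letters of the windows and no more.

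Matrix genes were higher at 4 weeks, more so on arrays A and B than on C and D. Of 12 tested collagen chains (15 are on the array) 7 rose and 1 fell, with a median of 0.84. Col1a1, which encodes a chain of type I collagen, read 4.78, 4.38 and 4.39 on naive arrays, where it was not detected, and 7.41, 7.53, 6.31 and 6.64 at 4 weeks, and exceeded naive liver at least 2.95-fold (adjusted p = 3.94e-05). Col3a1 rose by 1.69 ± 0.33 (adjusted p = 0.00179), or by 1.16 with undetected arrays at their lowest detected signal. The basement membrane chains Col4a1 and Col4a2, bright in naive liver, rose by 1.25 ± 0.27 and 1.33 ± 0.27 (adjusted p = 0.00327 and 0.00222). Col1a2, the partner chain of Col1a1, differed by 0.61 ± 0.28 (adjusted p = 0.12), and its arrays overlapped. It was detected on 1 naive array and on 3 of the 4-week arrays. Col18a1, a collagen that hepatocytes make, fell by 0.84 ± 0.25 (adjusted p = 0.021) and lost its call without naive array B or C or 4-week array A or C. The number of chains called higher was 4 without naive array B or without 4-week array A.

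Among matrix glycoproteins and proteoglycans 10 of 21 rose and 1 fell (median 0.85, or 0.57 at the bounds). Nid1, a basement membrane linker, read 6.58, 7.08 and 6.95 and then 9.32, 8.83, 9.25 and 9.17, a rise of 2.27 ± 0.29 (adjusted p = 7.4e-05). Elastin, Eln, rose by 2.05 ± 0.43 (adjusted p = 0.00273), or by 1.55 with undetected arrays at their lowest detected signal. Sparc, which binds collagen outside the cell, read 9.11, 9.08 and 9.01 and then 11.64, 11.14, 10.45 and 10.19, a rise of 1.78 ± 0.36 (adjusted p = 0.00193). Nid1 was about as high on array C as on array A, whereas Sparc and Eln were lower on C and D than on A and B. Lumican, Lum, rose by 1.61 ± 0.46 (adjusted p = 0.0167) and lost its call without naive array A or B. Ecm1, a glycoprotein that hepatocytes secrete, fell by 0.75 ± 0.18 (adjusted p = 0.00743). Without naive array B or C, 6 genes of the list were called higher.

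Enzymes that crosslink or cut matrix, and their inhibitors, rose in 9 of 22 cases and fell in 0 (median 0.67, or 0.59 at the bounds). That is 40.9% called, against 28.2% of all genes. Mmp2, a gelatinase of stellate cells, read 6.29, 6.08 and 6.40 in naive liver and 9.94, 9.26, 7.43 and 7.82 at 4 weeks. It rose by 2.36 ± 0.49 (adjusted p = 0.00273), and all 4-week arrays lay above the naive ones although they spread from 7.43 to 9.94. Timp1, an inhibitor of matrix metalloproteinases, was at least 2.07-fold, the macrophage elastase Mmp12 at least 1.74-fold and the crosslinking enzyme Lox at least 1.5-fold higher (adjusted p = 0.000281, 0.00101 and 0.000478). Loxl1 rose by 1.6 ± 0.46 (adjusted p = 0.0182), with 8.86 and 8.44 on arrays A and B and 6.78 and 7.26 on C and D, and lost its call without naive array B or 4-week array A or B. The transglutaminase Tgm2 rose by 1.09 ± 0.18 (adjusted p = 0.000468). The number of these genes called higher was 5 without naive array B, 4-week array A or 4-week array B.

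The growth factors and receptors of fibrosis rose in 9 of 23 cases and fell in 0 (median 0.49, or 0.27 at the bounds). That is 39.1% called, against 28.2% of all genes. Tnfrsf12a, the receptor of the cytokine TWEAK, read 6.77, 6.58 and 7.28 and then 10.57, 9.89, 10.76 and 9.55, a rise of 3.32 ± 0.31 (adjusted p = 6.52e-06). The mitogen Pdgfa rose by 1.80 ± 0.22 (adjusted p = 6.26e-05), to between 8.74 and 8.84 on every 4-week array. The TGF-beta receptor Tgfbr2 rose by 1.13 ± 0.22 (adjusted p = 0.00146), and the integrin subunit Itgb6, whose protein activates TGF-beta, was at least 1.13-fold higher (adjusted p = 0.00649). Tgfb1 itself read 6.53, 6.33 and 6.28 and then 6.77, 6.14, 7.05 and 6.46, so its groups overlapped (0.23 ± 0.25, adjusted p = 0.532). Pdgfrb, the receptor that marks stellate cells, differed by 0.48 ± 0.25 (adjusted p = 0.173) and was detected on 2 of the 3 naive arrays. Without any 1 of the naive arrays, or without 4-week array A, 4 or 5 of the 23 were called higher.

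Of 11 tested markers of stellate cells and myofibroblasts (19 are on the array) 2 rose and 0 fell, with a median of 0.19. The 18.2% that rose is near the 15.2% of all genes called higher. Acta2, the smooth muscle actin of myofibroblasts, read 7.33, 6.77 and 6.54 and then 10.17, 9.23, 8.21 and 8.46. It rose by 2.14 ± 0.47 (adjusted p = 0.00397), but its other 3 probes gave 0.52, 0.39 and 1.32, which leaves its size uncertain. Tpm1, an actin-binding tropomyosin, rose by 1.71 ± 0.19 (adjusted p = 3.15e-05). Desmin, Des, which quiescent mouse stellate cells already contain, differed by 0.18 ± 0.30 (adjusted p = 0.692), and only array A lay well above the naive range. Reln, another stellate cell gene, differed by 0.38 ± 0.19 (adjusted p = 0.155). In bulk tissue a change in the number of cells of a type and a change in RNA per cell cannot be told apart, here and for every cell type named.

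**Figure D3:**
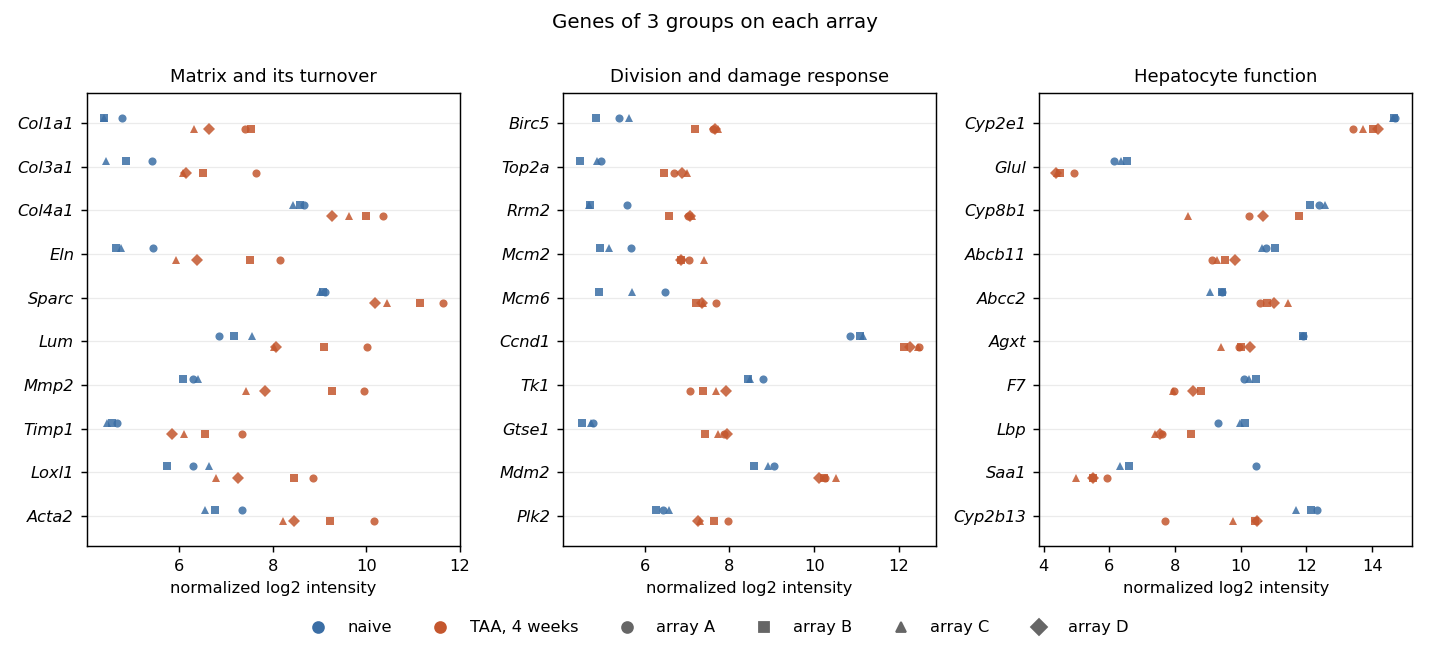
Normalized log2 intensity (horizontal) on each array for 10 genes each of the matrix, of division and the p53 response, and of hepatocyte function, naive in blue and 4 weeks of TAA in orange. Arrays A and B lie to the right of C and D for most matrix genes, as for Mmp2, while the 4-week arrays of Mdm2 and Ccnd1 lie close together.

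Of 23 cytoskeletal genes 13 rose and 0 fell (median 0.87). The tubulins Tuba1b and Tubb5 rose by 1.35 ± 0.20 and 1.25 ± 0.19 (adjusted p = 0.000219 and 0.000352). Tubb2b rose by 1.23 ± 0.31 (adjusted p = 0.00906), and its other probes gave 3.12 and 0.27. Tmsb10, a thymosin that binds actin monomers, read 8.64, 8.02 and 8.20 and then 10.43, 9.92, 10.06 and 9.56, a rise of 1.70 ± 0.30 (adjusted p = 0.000811). The myosin light chain Myl12a was at least 2.09-fold higher (adjusted p = 0.000101). Actb gave 0.31 ± 0.16 on the probe tested (adjusted p = 0.172) and -1.33, 0.79, 0.71 and -1.39 on its other probes, so no direction can be given for it. With median scaling 6 of the 23 were called higher. Calcium-binding annexins and S100 proteins rose in 4 of 15 cases and fell in 1 (median 0.52), which is 33.3% called against 28.2% of all genes. The gene that fell, S100a13 (-0.66 ± 0.21, adjusted p = 0.0309), lost its call without any 1 naive array, without 4-week array C or D and with median scaling. S100a11 read 8.77, 8.19 and 8.41 and then 11.53, 10.68, 11.22 and 10.54 (2.54 ± 0.35, adjusted p = 0.000128), and Anxa2 and Anxa5 rose by 2.48 ± 0.33 and 1.79 ± 0.21 (adjusted p = 9.61e-05 and 4.8e-05). The neutrophil gene S100a8 differed by 1.03 ± 0.44 (adjusted p = 0.0982), with overlapping groups.

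Markers of bile duct and progenitor cells rose in 8 of 14 cases and fell in 0 (median 1.14, or 0.80 at the bounds). Besides Ly6d, the tight junction gene Cldn4 was at least 4.07-fold higher (adjusted p = 0.000338), with 8.25 and 8.45 on arrays A and C and 6.37 and 6.66 on B and D. The keratin Krt23 read 6.65, 5.89 and 6.10 and then 8.91, 8.21, 8.89 and 8.16, a rise of 2.33 ± 0.32 (adjusted p = 0.000138). Krt8, a keratin of both hepatocytes and duct cells, rose by 1.54 ± 0.21 (adjusted p = 0.000128). The defining duct genes Krt19 and Sox9 differed by 0.79 ± 0.36 and 0.75 ± 0.32 (adjusted p = 0.119 and 0.0965). Krt19 was detected on no naive array and on 2 of the 4-week arrays, and Sox9 on 1 naive array. Of 8 tested YAP targets, genes that respond to tissue stiffness and cell density, 4 rose and 1 fell. Ankrd1 rose by 1.74 ± 0.29 (adjusted p = 0.000622), or by 1.46 with undetected arrays at their lowest detected signal, and Ccn2, which encodes connective tissue growth factor, by 1.58 ± 0.41 (adjusted p = 0.0107), with 10.28, 9.71, 8.89 and 8.09 on arrays A to D against 7.43, 7.83 and 7.72. Nuak2 fell by 0.76 ± 0.19 (adjusted p = 0.00972) and lost its call without naive array B.

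Genes of scar-associated macrophages and lysosomes rose in 9 of 27 cases and fell in 2 (median 0.26). That is 40.7% called, against 28.2% of all genes. The lysosomal tetraspanin Cd63 read 7.78, 7.24 and 7.40 and then 12.80, 12.15, 12.52 and 12.04, a rise of 4.91 ± 0.28 (adjusted p = 8.09e-08), with 3.63 and 3.74 on its other probes. Gpnmb, a glycoprotein of lipid-laden macrophages, exceeded naive liver at least 7.46-fold and the lipid receptor Trem2 at least 2.44-fold (adjusted p = 5.83e-05 and 0.00111), both with arrays A and B above C and D. Lgals1, which encodes galectin-1, rose by 2.97 ± 0.27 (adjusted p = 6.52e-06). Fabp5 fell by 1.42 ± 0.42 (adjusted p = 0.0203) and lost its call without naive array B or 4-week array C. Of 12 Kupffer cell markers 0 rose and 1 fell in limma (median -0.08), which is 8.33% called against 28.2% of all genes. Their summed intensity ran from 7653 to 8558 in naive liver and from 8194 to 10836 at 4 weeks. Cd163, a scavenger receptor for hemoglobin, read 7.81, 7.73 and 7.95 and then 6.10, 6.04, 6.32 and 6.37, a change of -1.62 ± 0.20 (adjusted p = 6.25e-05). Clec4f and Vsig4, which define Kupffer cells, differed by -0.09 ± 0.29 and 0.21 ± 0.19 (adjusted p = 0.852 and 0.438).

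Chemokine and recruited myeloid cell genes were divided, with 4 of 16 higher and 4 lower, and with 2 higher without naive array B or C. Cxcl10, a chemokine that interferon induces, read 5.03, 5.90 and 5.52 and then 7.91, 7.26, 8.58 and 8.0, a rise of 2.45 ± 0.40 (adjusted p = 0.000506). Cxcl9, of the same family and also induced by interferon, read 11.44, 9.23 and 9.2 and then 8.13, 8.18, 7.43 and 7.95, a change of -2.03 ± 0.44 (adjusted p = 0.00365), and the change was -1.29 without naive array A (adjusted p = 0.00837). Ccl9 and Cxcl13 changed by -1.05 ± 0.23 and -1.35 ± 0.30 (adjusted p = 0.00433 and 0.00399), the second with a change of -0.98 with undetected arrays at their lowest detected signal. Ccl9 lost its call with median scaling (-1.18, adjusted p = 0.0939), and the fractalkine receptor Cx3cr1 was at least 1.57-fold higher (adjusted p = 0.00749). Of 25 interferon-stimulated genes 11 fell and 1 rose (median -0.60). The immunity-related GTPase genes Ifi47, Irgm2 and Igtp changed by -1.54 ± 0.28, -1.42 ± 0.26 and -1.23 ± 0.24 (adjusted p = 0.00113, 0.000973 and 0.00152), and Isg15, a ubiquitin-like modifier, dropped by 1.10 ± 0.29 (adjusted p = 0.0108). Irgm1 rose by 0.91 ± 0.21 on the probe tested while its other probe gave -1.26, so no direction can be given for it. The fall was called in 6 of the 25 without naive array A, in 7 without 4-week array C and in 3 with median scaling.

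Of 7 lymphocyte markers 1 was called (14.3%, against 28.2% of all genes). It was Ltb, lymphotoxin beta, with an excess of at least 1.09-fold (adjusted p = 0.00661). Of 6 MHC class II genes 0 were called by limma at an adjusted p under 0.05. Cd74, the invariant chain of MHC class II, read 9.76, 9.86 and 9.78 in naive liver and 11.41 on array A against 10.23, 10.31 and 10.25 on arrays B to D (0.75 ± 0.28, adjusted p = 0.0552). The median of the class II genes stood 1.31 above the naive means on array A and from 0.08 to 0.25 above them on the others, and the median change was 0.44, or 0.14 without array A. Sinusoidal endothelial markers fell in 2 of 13 cases and rose in 0 (median -0.24), a share near the 12.9% of all genes called lower. The number that fell was 1 without any 1 naive array or without 4-week array A, C or D, 0 with median scaling and 4 with only the 7 arrays in the model. The scavenger receptor Stab2 fell by 0.72 ± 0.17 (adjusted p = 0.00643), and Lyve1 differed by 0.49 ± 0.30 (adjusted p = 0.243). Of 13 markers of continuous endothelium 0 were called, with a median of 0.08.

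Of 22 tested hepatocyte genes of the pericentral zone 14 fell, 2 rose and 6 were not called, against 12.9% of all genes called lower, with a median of -0.96. Slc1a2, the glutamate transporter of the hepatocytes next to the central vein, read 10.30, 10.15 and 10.06 in naive liver and 4.34, 4.38, 4.43 and 4.36 at 4 weeks, where it was detected on no array. It was lower by at least 34.6-fold (adjusted p = 4.24e-08), and its other probes gave -2.88 and -5.11. Ornithine aminotransferase, Oat, read 13.42, 13.20 and 12.84 and then 9.18, 8.54, 8.25 and 8.95, a change of -4.43 ± 0.34 (adjusted p = 1.45e-06). Glutamine synthetase, Glul, the defining enzyme of that zone, was lower by at least 2.43-fold (adjusted p = 9.64e-05), and Rhbg, an ammonium transporter, fell by 1.48 ± 0.19 (adjusted p = 9.44e-05). Cyp2e1, a cytochrome that activates thioacetamide, was very bright in both groups, at 14.71, 14.65 and 14.63 and then 13.41, 14.03, 13.73 and 14.18, and fell by 0.83 ± 0.18 (adjusted p = 0.00419). The tight junction gene Cldn2 fell by 1.22 ± 0.16 (adjusted p = 8.15e-05). Cyp2a5 went the other way, with a rise of 1.24 ± 0.24 (adjusted p = 0.00159) and 2.13, 2.25 and 2.12 on its other probes, and its call was lost with median scaling (adjusted p = 0.226).

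Of 20 periportal genes 7 fell and 2 rose (median -0.37, or -0.73 with median scaling). Pigr, which carries immunoglobulin A into bile, read 10.90, 11.01 and 10.85 and then 8.67, 9.0, 8.24 and 9.31, a change of -2.12 ± 0.25 (adjusted p = 4.06e-05). Sult5a1 was lower by at least 2.32-fold (adjusted p = 0.00128), and Pck1, the entry enzyme of gluconeogenesis, changed by -1.63 ± 0.38 (adjusted p = 0.00561), or by -1.39 with undetected arrays at their lowest detected signal, although array B, at 6.02, lay among the naive values. Cyp2f2, a cytochrome of the periportal zone, differed by 0.33 ± 0.24 (adjusted p = 0.318). Among 25 genes of hepatocyte identity 7 fell and 2 rose (36% called, against 28.2% of all genes). Of these genes 4 fell without naive array B or C or 4-week array C. Their median was -0.09, or -0.58 with median scaling, and 15 were called lower with median scaling and only the 7 arrays. The nuclear receptor gene Nr1i3, which encodes CAR, fell by 1.67 ± 0.22 (adjusted p = 0.000107), and Apoa5 dropped by 1.34 ± 0.24 (adjusted p = 0.000883). Hnf4a, the main regulator of hepatocyte identity, differed by -0.12 ± 0.24 (adjusted p = 0.752), and the secreted proteins Ttr and Apoa1 by -0.06 ± 0.19 and -0.07 ± 0.14 (adjusted p = 0.845 and 0.751). Apoa4 rose by 1.78 ± 0.30 (adjusted p = 0.000685), from 10.23, 10.72 and 10.84 to 12.89, 12.14, 12.45 and 12.02. The probe of albumin, Alb, was dim in naive liver, at 5.84, 6.72 and 5.90, and is no measure of that abundant transcript.

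Of 21 genes of the acute phase list 14 fell and 0 rose (median -1.36). The list holds proteins that hepatocytes secrete into plasma and also the receptor gene Il6ra. Lbp, which binds bacterial endotoxin, read 9.30, 10.14 and 9.98 and then 7.60, 8.49, 7.38 and 7.54, a change of -2.05 ± 0.28 (adjusted p = 0.000121). C-reactive protein, Crp, changed by -1.39 ± 0.16 (adjusted p = 3.79e-05) and Saa4 by -1.69 ± 0.30 (adjusted p = 0.000835). Serum amyloid A1, Saa1, read 10.46, 6.61 and 6.33 in naive liver and 5.92, 5.50, 4.99 and 5.50 at 4 weeks. It fell by 2.32 ± 0.70 (adjusted p = 0.0226), with a change of -1.0 without naive array A, and lost its call without 4-week array C. Saa3 and Lcn2, also of the acute phase, read 11.98 and 11.87 on naive array A and from 7.19 to 9.02 on naive arrays B and C, and neither was called (adjusted p = 0.0912 and 0.235). Without naive array A the median of the list was -0.95, and 8 genes were called lower without 4-week array C. The interleukin 6 receptor Il6ra changed by -1.36 ± 0.24 (adjusted p = 0.000874), or by -1.16 with undetected arrays at their lowest detected signal.

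Of 32 complement and coagulation factors 23 fell and 0 rose (median -0.91). Coagulation factor VII, F7, read 10.10, 10.45 and 10.26 and then 7.97, 8.79, 7.93 and 8.55, a change of -1.96 ± 0.22 (adjusted p = 2.97e-05). Plasma prekallikrein, Klkb1, changed by -1.96 ± 0.21 (adjusted p = 1.96e-05), and the anticoagulant Proc dropped by 1.22 ± 0.16 (adjusted p = 8.53e-05). The complement subunit C8g read 13.33, 13.24 and 13.42 and then between 11.79 and 12.21, a change of -1.36 ± 0.18 (adjusted p = 0.000106). Prothrombin, F2, differed by -0.40 ± 0.19 (adjusted p = 0.132). In every one of these called genes the 4-week arrays lay below all naive arrays, and with median scaling 15 of the 32 were called lower.

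**Figure D4:**
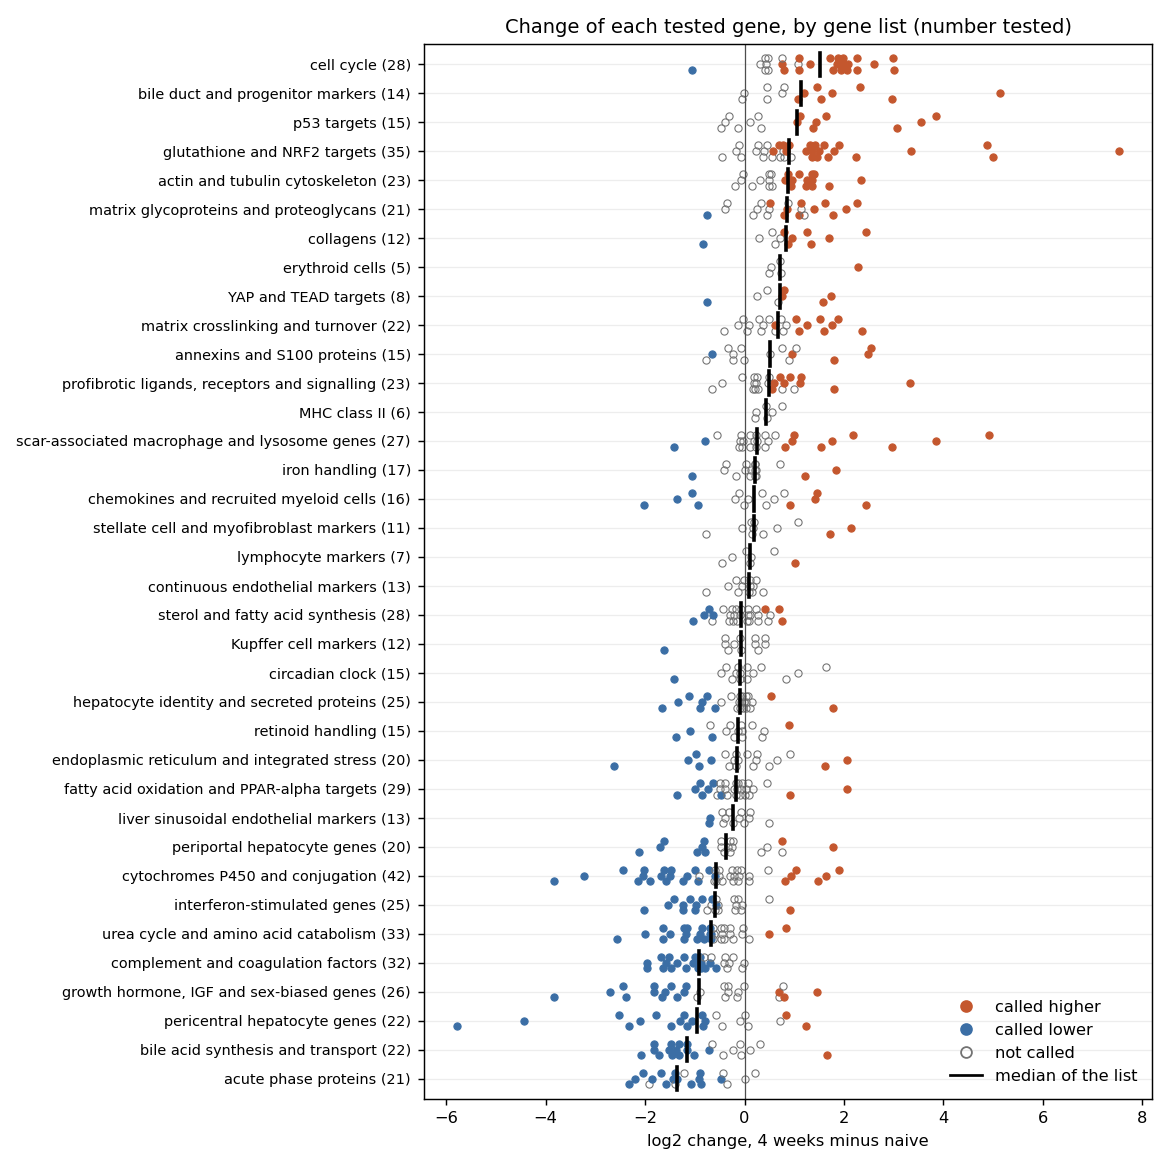
Log2 change as fitted, also for undetected genes (4 weeks minus naive, horizontal), of each tested gene of each gene list with at least 5 tested genes, filled in orange where called higher, in blue where called lower and open where not called, with the median of the list as a bar. Medians run from 1.51 for the cell cycle to -1.36 for acute phase proteins.

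Of 33 genes of the urea cycle and amino acid catabolism 17 fell and 2 rose (median -0.67). Proline dehydrogenase, Prodh, read 10.48, 9.92 and 9.40 and then 7.47, 7.60, 6.90 and 7.46, a change of -2.57 ± 0.24 (adjusted p = 8.03e-06). Agxt, which detoxifies glyoxylate, was tightly held at 11.90, 11.91 and 11.91 in naive liver and read 9.95, 10.01, 9.39 and 10.27 at 4 weeks, a change of -2.0 ± 0.19 (adjusted p = 9.38e-06). Hpd, of tyrosine breakdown, fell by 1.65 ± 0.22 (adjusted p = 9.43e-05). Cps1, the first enzyme of the urea cycle, differed by -0.30 ± 0.16 (adjusted p = 0.184), and Glud1, glutamate dehydrogenase, rose by 0.83 ± 0.27 (adjusted p = 0.0337) but lost its call without any 1 naive array and without 4-week array C or D.

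Of 22 genes of bile acid synthesis and transport 14 fell and 1 rose (median -1.15, or -1.09 at the bounds). Cyp8b1, the enzyme that sets the share of cholic acid, read 12.39, 12.10 and 12.57 and then 10.25, 11.78, 8.40 and 10.67. It fell by 2.08 ± 0.54 (adjusted p = 0.0105) and had the largest spread among the 4-week arrays of all genes detected on the 7 arrays. Cyp7b1 and Hsd3b7, which modify the sterol ring of bile acid precursors, changed by -1.83 ± 0.19 and -1.31 ± 0.18 (adjusted p = 1.62e-05 and 0.000139). Cyp7a1, the rate-limiting enzyme of the classic pathway, differed by -0.09 ± 0.31 (adjusted p = 0.861), with overlapping groups. The export pump Abcb11 fell by 1.38 ± 0.23 (adjusted p = 0.000536), and the uptake carrier Slc10a1 was at least 2.05-fold lower (adjusted p = 9.44e-05). Abcc2, the canalicular pump for conjugates, rose by 1.65 ± 0.25 (adjusted p = 0.000263), from 9.43, 9.42 and 9.06 to 10.59, 10.80, 11.43 and 11.01.

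Cytochromes and conjugating enzymes fell in 18 of 42 cases and rose in 6 (median -0.58). The sulfotransferase Sult2a8 read 10.51, 10.59 and 10.79 and then 6.33, 7.55, 5.93 and 7.32, a change of -3.84 ± 0.46 (adjusted p = 4.65e-05). The carboxylesterase Ces3b fell by 3.23 ± 0.42 (adjusted p = 8.87e-05) and the glycosyltransferase Ugt3a1 dropped by 3.14 ± 0.32 (adjusted p = 1.36e-05). Cyp2b13, a cytochrome biased to female liver, read 12.31, 12.15 and 11.68 and then 7.71, 10.44, 9.76 and 10.50, a change of -2.45 ± 0.60 (adjusted p = 0.00758). Array A was the lowest of the 4. Cyp2c55 rose by 1.91 ± 0.36 (adjusted p = 0.00131) and Ugt2b35 by 1.47 ± 0.22 (adjusted p = 0.00023), and Cyp3a11 by 1.03 ± 0.28 (adjusted p = 0.0144), which lost its call without naive array A or B. Cyp4a12a was detected on no naive array and was at least 1.67-fold higher (adjusted p = 0.00304). The number called higher was 3 with median scaling.

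Of 26 genes of growth hormone and IGF signalling or with a sex bias, 12 fell and 3 rose (median -0.92), with 1 higher without naive array A or 4-week array A. Cux2, a transcription factor of female liver, read 7.92, 6.80 and 7.51 and then 4.87, 5.22, 5.25 and 4.80, a change of -2.38 ± 0.31 (adjusted p = 9.51e-05). Hsd3b5, a steroid dehydrogenase biased to male liver in mice, was lower by at least 4.52-fold (adjusted p = 9.51e-05), and Serpina12, vaspin, fell by 3.83 ± 0.46 (adjusted p = 5.49e-05), from 9.59, 10.16 and 10.45 to 6.72, 6.86, 5.47 and 5.88. The growth hormone receptor Ghr fell by 1.21 ± 0.18 (adjusted p = 0.000274) and Igfbp2 dropped by 1.82 ± 0.22 (adjusted p = 5.78e-05). Igf1 differed by -0.33 ± 0.21 (adjusted p = 0.271). Mup2, of the near-identical major urinary proteins, fell by 3.11 ± 0.64 (adjusted p = 0.0023), whereas Mup21 rose by 1.46 ± 0.29 (adjusted p = 0.0018). Cux2 of female liver and Hsd3b5, biased to male liver, thus both fell, and a direction for the genes of either sex as a set was not tested.

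Of 28 genes of sterol and fatty acid synthesis 4 fell and 3 rose (median -0.08), near the shares over all genes, and with median scaling 0 were called in either direction by limma at an adjusted p under 0.05. Srebf1, which encodes the regulator of fatty acid synthesis, fell by 0.81 ± 0.20 (adjusted p = 0.00767) and Tm7sf2 dropped by 1.03 ± 0.24 (adjusted p = 0.00555), while Lss rose by 0.76 ± 0.21 (adjusted p = 0.0146) and lost its call without naive array C. Of 29 genes of fatty acid oxidation 7 fell and 2 rose (median -0.18), which at 31.0% called is near the share of all genes, and 3 or 4 were called lower without naive array A or C or 4-week array A. Pdk4, which turns off pyruvate oxidation, rose by 2.07 ± 0.52 (adjusted p = 0.00807), with 5.77, 7.07 and 8.19 in naive liver and 8.61, 9.06, 10.49 and 8.18 at 4 weeks, so array D reached only the highest naive value. Ehhadh rose by 0.91 ± 0.25 (adjusted p = 0.0138), and Slc27a2, a fatty acid transporter, fell by 0.99 ± 0.19 (adjusted p = 0.00157).

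The genes of endoplasmic reticulum and integrated stress split, with 2 of 20 higher and 5 lower (median -0.16). The share called was 35%, against 28.2% of all genes, and 2 were lower with median scaling. Atf3 exceeded naive liver at least 2.48-fold (adjusted p = 1.83e-05) and Ddit3, which encodes CHOP, rose by 1.61 ± 0.22 (adjusted p = 0.000135), both transcription factors of the stress response. Chac1, a glutathione-degrading enzyme that the same response usually induces, was detected on every naive array and on no 4-week array, and was at least 4.49-fold lower (adjusted p = 6.56e-07). Herpud1 and Pdia6, of the same list, changed by -0.97 ± 0.20 and -1.14 ± 0.17 (adjusted p = 0.00228 and 0.000312). Hspa5, the main chaperone of the endoplasmic reticulum, differed by 0.04 ± 0.34 (adjusted p = 0.944). Its probe was dim in naive liver, detected on 2 of the 3 arrays, so this value does not show that the gene was unchanged.

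Of 17 iron genes 2 rose and 1 fell (17.6% called, against 28.2% of all genes), and their median was 0.21 but -0.13 with median scaling. Id1, a target of bone morphogenetic protein signalling, rose by 1.85 ± 0.26 (adjusted p = 0.000175) and the transferrin receptor Tfrc by 1.21 ± 0.20 (adjusted p = 0.000622), whereas Tfr2 fell by 1.05 ± 0.22 (adjusted p = 0.00268). Hepcidin, Hamp, differed by 0.23 ± 0.17 (adjusted p = 0.329). Of 15 retinoid genes 3 fell and 1 rose, and the 26.7% called is near the share of all genes. Rdh16 and Rdh7, retinol dehydrogenases, changed by -1.38 ± 0.27 and -1.09 ± 0.17 (adjusted p = 0.00172 and 0.000279). Of 15 clock genes 1 was called, lower (median -0.09), whereas without naive array A 3 were called higher and 0 lower, with a median of 0.21. Dbp, a clock output gene, read 12.25 on naive array A against 6.33 and 6.46 on the others and from 9.67 to 10.66 at 4 weeks. Its difference was 1.63 ± 1.03 (adjusted p = 0.255), and 3.58 without naive array A (adjusted p = 0.000174). Nr1d1, the repressor REV-ERB alpha, read 8.76 on naive array A and 6.79 and 6.54 on naive arrays B and C, and from 5.57 to 6.27 at 4 weeks. It fell by 1.41 ± 0.42 (adjusted p = 0.0215), but the change was -0.72 without naive array A (adjusted p = 0.0953), and it lost its call without 4-week array A too. Rgs16, a regulator of G protein signalling, read 10.82 on naive array A against 8.68 and 8.73 on the others and from 5.54 to 7.51 at 4 weeks. It fell by 3.11 ± 0.62 (adjusted p = 0.00197), and the change was -2.40 without naive array A (adjusted p = 0.0126).

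Dct, a melanin pathway tautomerase, read 9.35, 8.98 and 9.03 and then 5.18, 5.42, 4.92 and 6.16, a change of -3.70 ± 0.32 (adjusted p = 4.46e-06). Slc22a26, of the organic anion carriers, fell by 3.54 ± 0.42 (adjusted p = 4.61e-05). Nxpe2 and Lrtm1 were detected on every naive array and on no 4-week array, and were at least 7.56-fold and 5.74-fold lower (adjusted p = 7.56e-06 and 0.000263). Rfx4, a transcription factor gene, and Nox4, which encodes an NADPH oxidase, were likewise not detected at 4 weeks and were at least 3.03-fold and 2.42-fold lower (adjusted p = 1.9e-06 and 9.67e-05). Among genes of tissue that might be carried over, 3 pancreas genes summed from 499 to 659 in naive liver and from 362 to 459 at 4 weeks, and 2 of them were called lower. The 2 adipose genes tested summed from 9 to 30 in naive liver and from 34 to 103 at 4 weeks, without overlap. However, 1 of the 2 was detected on none of the 7 arrays, and the sums are near the floor. The other, Cidec, a lipid droplet protein, was detected on no naive array and was at least 1.8-fold higher (adjusted p = 0.00184). The defining adipose gene Adipoq did not pass the detection filter. Of 8 skeletal muscle genes 0 passed that filter. The 5 erythroid genes tested summed from 5226 to 16846 in naive liver and from 12376 to 26400 at 4 weeks, highest on array A. Car2, the carbonic anhydrase of red cells, also found in duct cells, rose by 2.28 ± 0.30 (adjusted p = 9.51e-05), or by 1.84 with undetected arrays at their lowest detected signal. The part of blood, pancreas or adipose tissue in the other results was not tested.

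**Figure D5:**
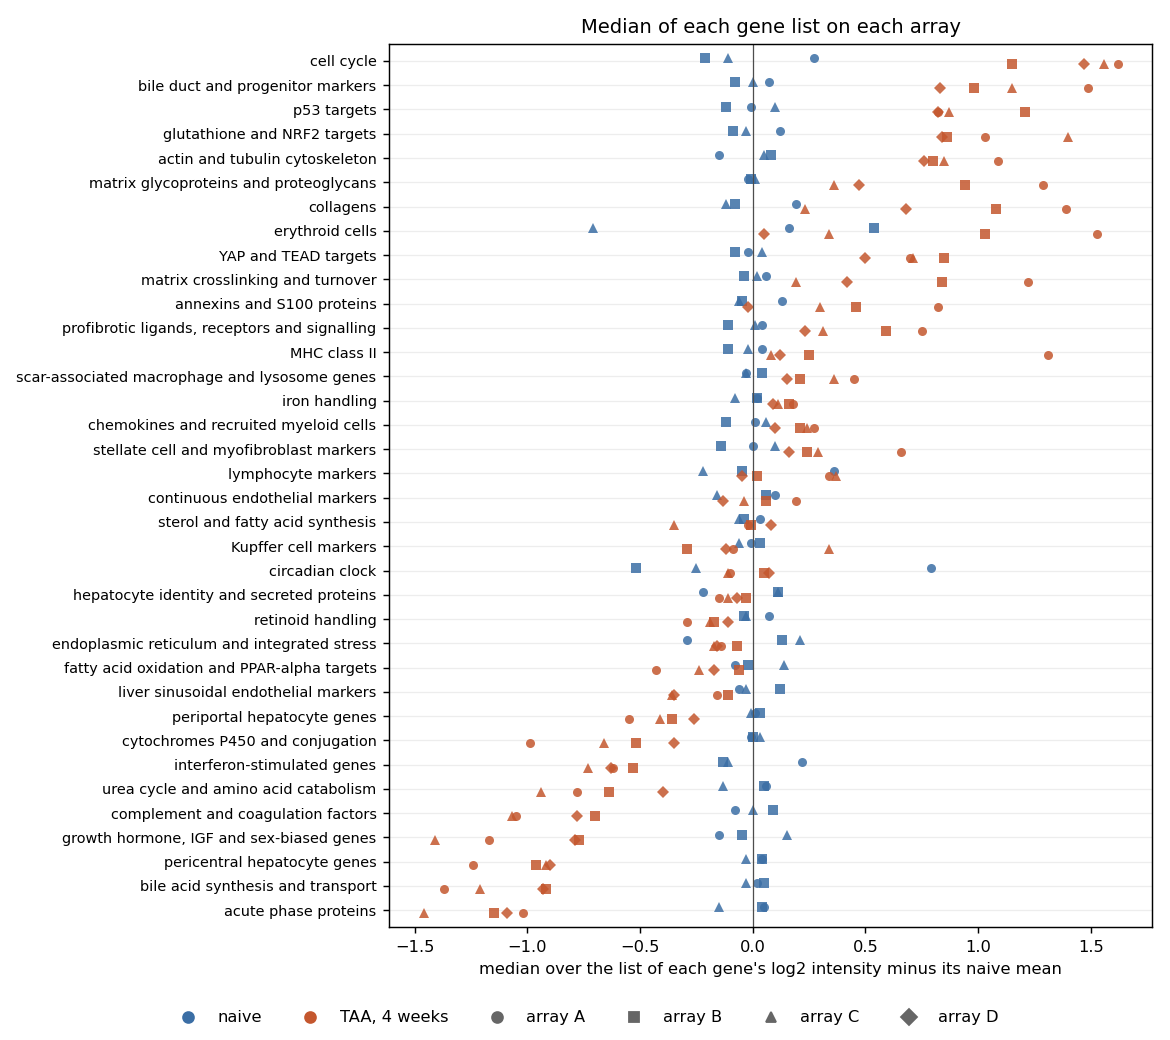
Median over each gene list of the log2 intensity of its genes minus their naive mean (horizontal), on each naive array in blue and each 4-week array in orange. Array A has the highest median of the 4-week arrays for collagens, at 1.39, and for MHC class II, at 1.31, and array C has the lowest for collagens, at 0.23.

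The 4-week arrays differed among themselves in an orderly way. For genes detected on all 7 arrays, 6219 in number, the median SD was 0.184 among the 4-week arrays and 0.172 among the naive arrays. The median collagen stood 1.39, 1.08, 0.23 and 0.68 above the naive mean on arrays A, B, C and D. The matching values were 1.29, 0.94, 0.36 and 0.47 for matrix glycoproteins and 1.22, 0.84, 0.19 and 0.42 for crosslinking and turnover. Array A was thus highest in these 3 matrix lists and array C lowest. For NRF2 genes array C was highest instead, at 1.40 against 0.84 to 1.03, and for growth hormone and sex-biased genes it was lowest, at -1.41 against -0.77 to -1.17. The pericentral list was more even, from -0.90 to -1.24. Emp1, an epithelial membrane protein, spread as the matrix genes did, with 9.91, 9.12, 7.98 and 7.76 against 6.38, 5.99 and 6.21 in naive liver, and rose by 2.5 ± 0.48 (adjusted p = 0.00151). Serpina1e, an antitrypsin of the mouse family, read 11.39, 13.12 and 12.47 and then 10.54, 9.81, 7.93 and 8.66, a change of -3.09 ± 0.64 (adjusted p = 0.00245).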

How the data were processed

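Total liver RNA was hybridised to Illumina MouseRef-8 arrays of 1 colour. The deposited raw table holds, per the file headers, the bead intensity of each probe and a detection p-value, and the submitters' processing notes name GenomeStudio without a version. The other table, also deposited, holds the authors' processed values near 0 (mean 0.00751, column medians from -0.00176 to 0.00134) whose scale, centring and direction are not stated. Differences between group means followed those of log2 intensities in the raw table across probes (r = 0.998, slope 0.908), so the values deposited by the authors were read as log2 intensities, higher for brighter, with a centring that is not known. These values served as an alternative. All sample columns were assigned to a group.

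Background correction and quantile normalization used neqc (limma 3.58.1, R 4.3.3, offset 16), which inferred the negative controls from detection p-values. The filter asked for detection (p under 0.01) on 3 or more of the 13 arrays, and 11212 probes passed it, 10559 of them with a symbol. Of all probes 23978 had a symbol and 1719 had none, and 23962 symbols were updated or checked through gene identifiers. The probe with the highest mean over the 13 arrays stood for its gene, and 1935 genes had further probes. One limma model with a mean per group was fitted to all 13 arrays, so 4 groups share the estimate of the spread, and the 2-sided moderated test was adjusted by Benjamini and Hochberg. The number of arrays limits the precision. The procedure was tested on simulated data.

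A gene detected on no array of its dimmer group has only a lower bound of its fold, the brighter mean over the dimmer one after raising each dimmer array to at least the lowest signal detected on it. Medians at the bounds use these folds. The members and the 40 gene lists, written from general knowledge, were chosen with earlier results of these data known. Genes were named from the 12 largest rises and falls, the 8 largest bounds each way and the genes of widest spread. Others came from the key genes of each list, up to 4 called genes each way, and called genes against a list's majority. Not every gene that this rule gave is named. Among those left out are Serpinh1, S100a6 and Ppara, which were not called, and Aldh3a2, Gpt2 and Sqle, which went against their lists. The largest rises and falls were taken only from called genes whose groups did not overlap and which every array of the brighter group detected. Cdk1, Kif22 and Prc1 lie outside that rule, and were chosen with their sequences after their values were seen. Cdc20 also lies outside it and is named for the position of its motif. Promoter sequences and their windows are RefSeq's (GRCm38.p6).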

Additional observations from a re-analysis of the deposited data

Results flagged for a closer look

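Among genes named here, 8 had a 4-week array farther from the nearest other array than Dixon's critical value for 4 values allows, which chance gives in about 1 in 20 genes. Over all 8027 genes 384 did (4.78%), most often array A, in 130 genes, and array C, in 105. On array A the acute phase gene Lcn2 was high at 9.53 and the class II chain Cd74 at 11.41, and Ecm1 was low at 9.88. On array C the chemokine Ccl4 was high at 7.39 and the stellate cell gene Reln at 11.09, and Orm1, an acute phase protein, was low at 12.66. Rrm2 was low on array B at 6.57. Dbp, a clock output gene, was high on array D at 10.66, and its naive arrays ran from 6.33 to 12.25.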

How the results depend on the processing

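Counts of called genes moved by more than 1.5 times with median scaling, to 861, of which 545 were higher and 316 lower, and the number higher did so with median scaling of only the 7 arrays, to 2110. The genes called lower among those detected in 1 group only numbered 10 with a detection p-value under 0.05. The other settings gave from 2087 to 3145 calls: only the 7 arrays 3145, array set as a term 2420, no background correction 2278, no detection filter 2087, detection on every array of a group 2321, the mean of all probes 2247, every probe 2808, the values deposited by the authors 2266, and detection on 3 of the 7 arrays 2296, chosen after seeing the data, as was median scaling of the 7 arrays. Leaving out 1 array gave from 1600 to 1991 calls. Replicate numbers did not pair the arrays (r between same-numbered samples -0.007, 0.042 and -0.019), and with a replicate block those values gave 1875 calls, 952 higher and 923 lower. Irgm1 turned to -0.17 with the mean of its probes. With median scaling the calls of Ccl4, Ccl9, Cyp2a5, Cyp3a11, Ecm1, Fabp5, Glud1, Igtp, Isg15, Krt8, Lss, Nr1d1, Nuak2, Pdia6, S100a13, Srebf1, Stab2, Tfr2, Tgfbr2, Tgm2, Tk1, Tm7sf2, Tuba1b and Tubb2b were lost. Without background correction the medians of the lists were smaller, as for the cell cycle at 0.72. Why these settings differ was not tested. Dim probes limit the comparison, since 44 tested genes were detected on none of the 7 arrays.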
